A study of Rattus norvegicus with 6 samples.

Results

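The proteasome genes of the liver were described after oral tienilic acid (TA), a diuretic that lowers urate and was withdrawn because it caused hepatitis. The genes were chosen by name: probe sets (groups of oligonucleotides that read 1 transcript) whose single gene symbol began with Psma, Psmb, Psmc, Psmd, Psme, Psmf or Psmg were taken, except those of the inducible subunits Psmb8, Psmb9 and Psmb10, and each gene was read by its brightest probe set. This gave 43 genes among the 14217 with a symbol of their own on the array, through 57 probe sets. All 43 passed the filter on low values, as did 10449 genes in all. By role, 7 of the 43 encode subunits of the alpha ring, 6 of the beta ring, 6 the ATPases of the regulatory particle and 11 its other subunits. A further 7 encode assembly chaperones and 4 encode activators or an inhibitor. The remaining 2, Psmc3ip and Psme3ip1, share the prefix but encode no part of the proteasome, and the other 41 are its subunits, chaperones and regulators. Psmb6 and Psme3 were not among them, because their probe sets carry several gene symbols.

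Male Sprague Dawley rats were given TA by gavage at 100 mg/kg, dissolved with sodium bicarbonate, or sodium bicarbonate alone as vehicle. Livers were taken either 6 h after 1 dose or 24 h after the first of 2 doses, the later of which was given at 16 h. At each time there were 2 arrays of TA, each of 1 animal, and 1 vehicle array of RNA pooled from 2 rats, so that 8 rats are behind the 6 arrays. The labels do not number the animals across times, and animal 1 of 6 h and animal 1 of 24 h are different rats. All values are the deposited log2 expression values of whole liver RNA, and differences are log2 differences unless a fold is named.

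The proteasome is the cell's main protease for proteins tagged with ubiquitin. Its barrel-shaped core is built of alpha rings, which control entry, and beta rings, whose Psmb5, Psmb6 and Psmb7 subunits cut the chain. The regulatory particle docks on the core, binds and removes ubiquitin, and unfolds the substrate with a ring of ATPases. In liver as elsewhere, transcription of these genes is coordinated, and the transcription factors Nrf1 (Nfe2l1) and Nrf2 (Nfe2l2) are known to raise it after proteasome inhibition or electrophile stress.

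The 6 arrays had medians between 3.27 and 3.31 over all probe sets, and their lowest pairwise correlation was 0.991. Control probe sets read the 3′ end of a transcript above its 5′ end, by 4.17 to 4.36 for actin. For GAPDH the gap ran from 1.82 and 1.91 in the TA animals of 24 h to 2.26 in TA animal 1 of 6 h. The summed level of 7 measured hepatocyte markers lay between 18.11 and 18.23 on the log2 scale, and albumin lay between 16.54 and 16.67. Fluidics runs were inferred from the hybridization clock times in the settings recorded for the arrays. Only the time of day was used, not the date, and a gap in the sorted times was taken to part the runs. By these times the vehicle pool and TA animal 1 of 6 h fell in 1 run and the other 4 arrays in another. A vehicle group of 1 array has no spread of its own, so the standard errors below rest on the differences between the 2 TA animals of each time. In whole liver RNA, a smaller number of cells of a type and less RNA per cell cannot be told apart.

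No proteasome gene passed the threshold in any comparison. With limma, 0 of the 43 had an adjusted p under 0.05 for TA against vehicle at 6 h, where 0% of the 18625 probe sets tested passed, and 0 of 43 at 24 h, where 0.00537% passed (1 probe set). The count was also 0 for the mean of both times (0.00537% of probe sets), for the effect at 24 h minus the effect at 6 h (0.00537%) and for TA at 24 h against TA at 6 h (0%). At an unadjusted limma p under 0.05, 1 of the 43 was higher and 2 were lower with TA at 6 h, against 1.83% and 3.8% of all genes. At 24 h the counts were 0 and 0, against 2.1% and 3.06%. For the mean of both times they were 1 higher (2.15% of all genes) and 1 lower (4.14%), and for the difference of the effects 0 higher (2.66%) and 0 lower (1.95%). Between the TA animals of the 2 times, 10 were higher at 24 h (9.35% of all genes) and 2 were lower (7.63%). Over the 43 genes the median distance between the highest and the lowest of the 6 arrays was 0.42, and the median SE of a difference from vehicle was 0.13. The median absolute difference from vehicle was 0.099 at 6 h and 0.099 at 24 h. Differences from vehicle of the size seen in most of the family are therefore within the error of this design. Differences between the TA animals of the 2 times were larger, with a median of 0.21 over the 43.

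**Figure D1:**
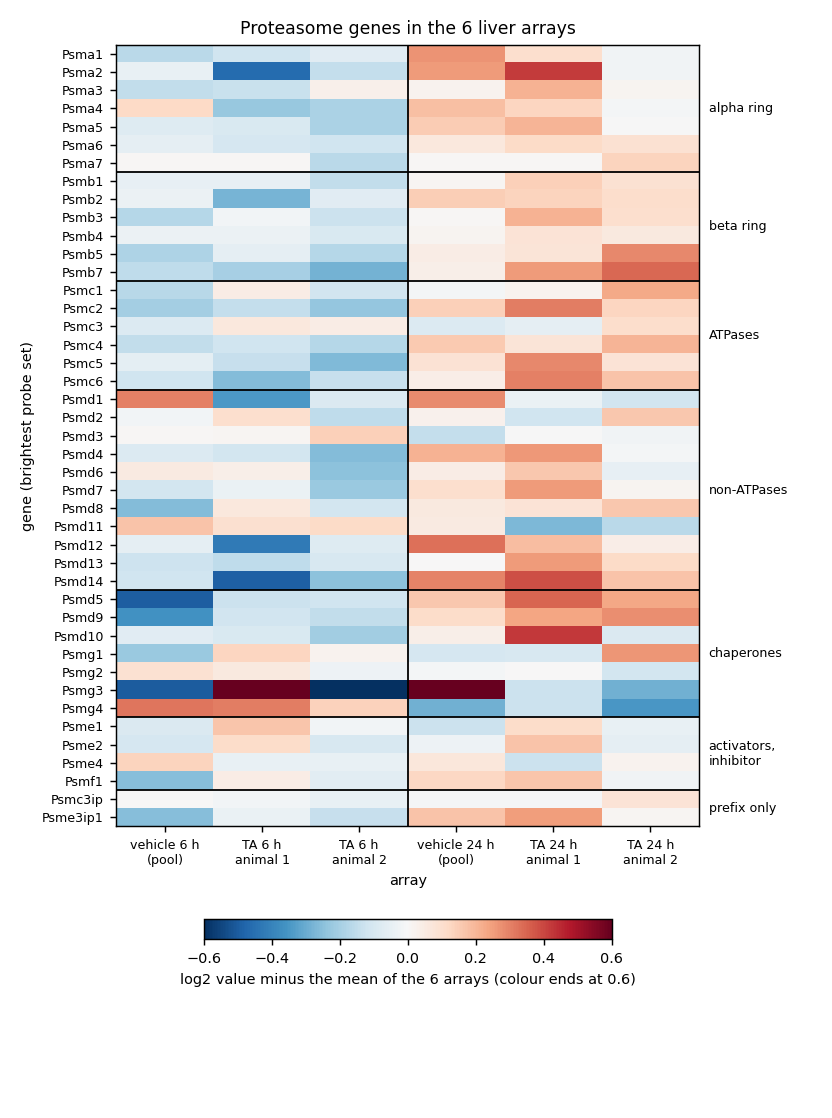
Each row is a proteasome gene, grouped by role, and each column an array; colour gives the log2 value minus the gene's mean over the 6 arrays, ending at 0.6 on either side. The 3 arrays of 6 h are mostly blue and the 3 of 24 h mostly red, in vehicle and TA livers alike: in 22 of 43 genes every 24 h array lay above every 6 h array.

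At 6 h after 1 dose of TA, the proteasome genes lay close to the vehicle pool. The median difference over the 43 was -0.03, the same as over all 10449 genes (-0.03), and single genes ranged from -0.52 to 0.58. Both TA animals lay above the vehicle pool for 15 of the 43 (22.9% of all genes) and below it for 21 (38.4% of all genes). After quantile normalization of the same values the split was 21 above (34.5% of all genes) and 5 below (29%), so the balance of small differences at 6 h depended on the scaling. Among the 8322 genes above the 60th percentile of probe sets, where all 43 lay, the shares without it were 23.3% above and 43.1% below. Against both pools rather than 1, the 6 h animals lay above for 4 genes (13% of all genes) and below for 17 (20.4%). Animal 1, placed in the run of the vehicle pool, gave a median of -0.0006 over the 43. Animal 2, placed in the other run, gave -0.04.

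Values below are given in the order vehicle pool, TA animal 1 and TA animal 2. For the counts by role at 6 h, the shares of all genes in both animals were 22.9% above and 38.4% below the pool. The alpha ring had a median difference of -0.06 at 6 h, and both animals lay below the pool for 5 of its 7 genes. Psma4 read 11.30, 10.95 and 10.99 at 6 h and 11.36, 11.31 and 11.17 at 24 h. Its TA animals of 6 h were the lowest of the 6 arrays, at a difference of -0.33 ± 0.11 (SE) with an adjusted limma p of 0.847. Psma2 read 10.65, 10.23 and 10.55 at 6 h and 10.96, 11.12 and 10.67 at 24 h, with a difference of -0.26 ± 0.26 at 6 h. The animals of Psma2 lay -0.42 and -0.10 from the pool, so that their own spread was as large as the difference. Psma1 and Psma3 lay above the pool in both animals, by 0.07 ± 0.11 and 0.10 ± 0.15.

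In the beta ring the median difference at 6 h was -0.04, with 2 genes above the pool and 3 below it in both animals. The trypsin-like subunit Psmb7 read 11.46, 11.41 and 11.33 at 6 h and 11.64, 11.87 and 11.95 at 24 h. The chymotrypsin-like subunit Psmb5 read 12.26, 12.39 and 12.27 at 6 h and 12.49, 12.52 and 12.73 at 24 h. Neither catalytic subunit differed from the pool at 6 h by more than its SE (-0.09 ± 0.11 and 0.07 ± 0.14). Psmb2, a subunit of the ring without a cutting site, was -0.14 ± 0.13, and most of that came from animal 1 at -0.24. Psmb1, Psmb3 and Psmb4 lay between -0.05 and 0.10.

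The 6 ATPases lay between -0.14 and 0.14 at 6 h, with a median of 0.01. The 11 other subunits of the regulatory particle had a median of -0.07, with 2 above and 6 below the pool in both animals. The lowest of all 43 was Psmd1, a large scaffold subunit of the base, which read 9.58, 8.93 and 9.19 at 6 h and 9.56, 9.24 and 9.16 at 24 h. All 4 TA animals lay below both vehicle pools, at -0.52 ± 0.15 at 6 h (a fold of 0.698, adjusted limma p 0.832) and -0.37 ± 0.15 at 24 h. Over both times its mean difference was -0.44 ± 0.11 (adjusted limma p 0.74), the smallest p among the 43. Psmd14, the deubiquitinase that cuts ubiquitin from the substrate, read 11.13, 10.76 and 11.00 at 6 h and 11.54, 11.63 and 11.42 at 24 h and differed by -0.25 ± 0.18 at 6 h. Psmd12, another lid subunit, read 10.55, 10.18 and 10.52 at 6 h and 10.93, 10.79 and 10.64 at 24 h, and its 6 h difference of -0.20 ± 0.20 was carried by animal 1. Above the pool lay Psmd8, at 0.24 ± 0.13, which read 10.24, 10.56 and 10.39 at 6 h and 10.56, 10.58 and 10.66 at 24 h.

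The assembly chaperones were the group with the highest median at 6 h, 0.23 over 7 genes. In both animals 3 lay above and 3 below the pool. Animal 1 alone gave a median of 0.25, but animal 2 gave -0.10. The remaining gene, Psmg3, counts as higher in the group median through animal 1 (1.25), while its animal 2 lay at -0.10. Psmd5, a chaperone that binds ATPases of the base during assembly, read 9.85, 10.22 and 10.23 at 6 h and 10.51, 10.70 and 10.58 at 24 h. Both TA animals stood within 0.02 of each other, 0.37 ± 0.11 above the pool of 6 h (a fold of 1.29, adjusted limma p 0.832), and below all 3 arrays of 24 h. Psmd9, another chaperone of the base, read 8.41, 8.66 and 8.62 at 6 h and 8.88, 9.01 and 9.05 at 24 h and differed by 0.23 ± 0.09. For both genes no array read lower than the 6 h pool, which held for 13 of the 43 (9.83% of all genes), while for 5 no array read higher than it (19%). Set against the 24 h pool instead, the same animals lay lower, at -0.29 for Psmd5 and -0.24 for Psmd9. Psmg1, which with Psmg2 starts assembly of the alpha ring, read 10.76, 11.11 and 11.01 at 6 h and 10.88, 10.89 and 11.25 at 24 h, at 0.30 ± 0.20 from the pool. Psmg2 was at -0.08 ± 0.11, so the partners did not lie on the same side. Psmg3 read 7.05, 8.29 and 6.95 at 6 h and 8.32, 7.42 and 7.26 at 24 h, and its TA animals of 6 h differed from each other by more than any other gene of the family.

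Among activators and inhibitor, Psmf1, the proteasome inhibitor subunit PI31, read 11.24, 11.54 and 11.43 at 6 h and 11.62, 11.66 and 11.47 at 24 h and was 0.25 ± 0.14 above the pool at 6 h. Psme4, the nuclear activator PA200, read 10.98, 10.80 and 10.81 at 6 h and 10.92, 10.72 and 10.87 at 24 h and was -0.18 ± 0.11 from it. Outside the proteasome proper, Psme3ip1, which encodes a binding partner of the activator PA28 gamma, was at 0.17 ± 0.15. It read 7.59, 7.81 and 7.71 at 6 h and 8.02, 8.10 and 7.86 at 24 h.

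**Figure D2:**
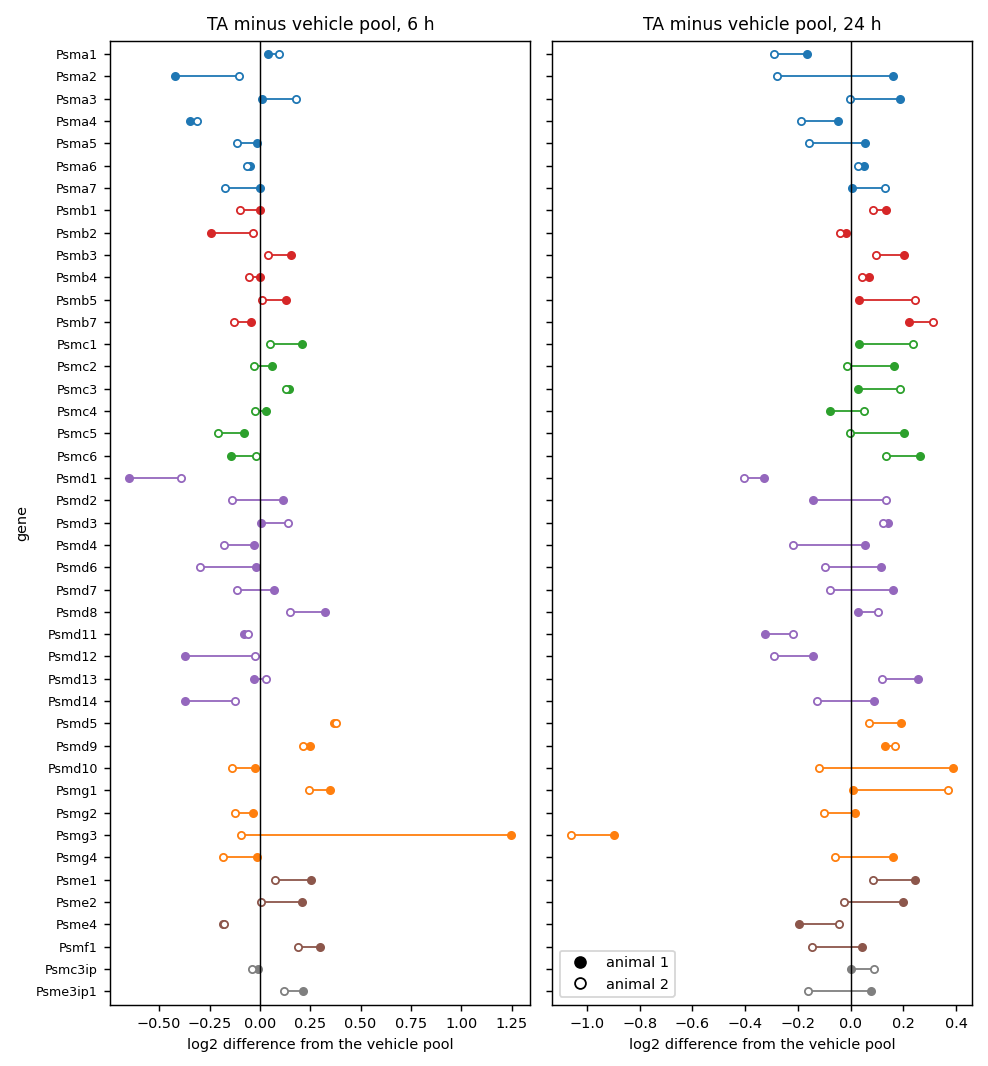
Log2 difference of each TA animal (filled, animal 1; open, animal 2; a line joins them) from the vehicle pool of its time, for the 43 genes at 6 h (left) and 24 h (right); the horizontal axes differ in range. Most pairs of points lie within 0.25 of zero, and Psmd1 lies left of zero in all 4 animals.

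At 24 h, after the later dose, the median difference from vehicle was 0.05 over the 43 and -0.01 over all genes. Both animals lay above the pool for 18 genes (28.1% of all genes) and below it for 8 (34.5%). Among genes above the 60th percentile these shares were 31% and 32.3%. After quantile normalization the counts were 15 (33.8%) and 8 (26.6%), and the medians 0.03 and 0.01. Against both pools, the 24 h animals lay above for 16 (14.6%) and below for 3 (24.6%). Animal 1 alone gave a median of 0.05 and animal 2 gave -0.0046.

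For the counts by role at 24 h, the shares of all genes in both animals were 28.1% above and 34.5% below the pool. The beta ring had the highest median of the core at 24 h, 0.12 over 6 genes. Of these genes 5 lay above the pool in both animals. The largest of these was Psmb7, whose 2 TA animals were the highest of the 6 arrays at 11.87 and 11.95 against 11.64 in the pool. Its difference was 0.27 ± 0.11 (a fold of 1.2), with an adjusted limma p of 0.97. Psmb5 was 0.14 ± 0.14 above the pool, nearly all of it from animal 2 at 0.24. Psmb2 was at -0.03 ± 0.13. The alpha ring had a median of -0.05, with 2 genes above the pool in both animals and 2 below. The lowest was Psma1, which read 10.63, 10.67 and 10.72 at 6 h and 11.06, 10.89 and 10.77 at 24 h and differed by -0.23 ± 0.11. Its pool of 24 h was the highest of the 6 arrays.

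Of the ATPases, 3 of 6 lay above the pool in both animals and none below, with a median of 0.10. Psmc6 read 11.64, 11.50 and 11.62 at 6 h and 11.80, 12.06 and 11.93 at 24 h and differed by 0.20 ± 0.12. Psmc3, which read 11.18, 11.33 and 11.31 at 6 h and 11.18, 11.21 and 11.37 at 24 h, lay above both pools in all 4 TA animals, by 0.14 ± 0.12 at 6 h and 0.11 ± 0.12 at 24 h. The remaining regulatory subunits had a median of -0.0049. Psmd13 read 9.57, 9.54 and 9.60 at 6 h and 9.70, 9.95 and 9.81 at 24 h, at 0.19 ± 0.11. Psmd11, which clamps the regulatory particle to the core, read 11.29, 11.21 and 11.23 at 6 h and 11.17, 10.85 and 10.96 at 24 h. Its TA animals of 24 h were the lowest of the 6 arrays, at -0.27 ± 0.10 with an adjusted limma p of 0.962. Psmd1 and Psmd12 lay below the pool in both animals again, at -0.37 ± 0.15 and -0.22 ± 0.20.

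The largest difference of all at 24 h was that of Psmg3, a chaperone of alpha ring assembly, at -0.98 ± 0.62. Its SE is the widest of the family, because its animals of 6 h stood far apart and the spread is shared between times, and its pool of 24 h (8.32) read 1.27 above its pool of 6 h. Psmg1 and Psmd9 lay above the pool again, at 0.19 ± 0.20 and 0.15 ± 0.09. The effects at the 2 times differed for no member by the limma test of the difference (smallest adjusted p 1). In 10 of the 43 both animals lay above their pool at both times (8.1% of all genes), and in 6 they lay below at both (14%). They went from below at 6 h to above at 24 h in 6 (10.3%) and the other way in 1, Psma1 (6.74%). In Psmc3, Psme1 and Psmg1 all 4 TA animals also exceeded both pools (3 genes, 2.95% of all genes). In Psmd1 and Psme4 all 4 were under both (2 genes, 5.44% of all genes).

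The pattern that most members shared was between the times. In the 2 vehicle pools, which had received no TA, 33 of the 43 genes read higher at 24 h than at 6 h (40.7% of all genes), with a median difference of 0.16 against -0.01 over all genes. Among the TA animals, both of 24 h lay above both of 6 h for 27 of the 43 (24% of all genes) and below for 3 (23.2%), with a median of 0.21 against -0.0016. Every 24 h array lay above every 6 h array for 22 genes (13.3% of all genes) and below for 3 (15.1%). Among the 8322 genes above the 60th percentile, the shares were 43.6% for the pools, 27.7% and 24.8% for the TA animals, and 15.8% for all 24 h arrays above all 6 h arrays. Quantile normalization left 22 genes with every 24 h array on top (17.5% of all genes), 39 with the later pool higher (55.8%), and 24 above and 4 below in the TA animals (27.8% and 21.3%).

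The inferred run and time partly overlap, since 2 of the 3 arrays of 6 h were placed in a run of their own. Within the other run, both TA animals of 24 h lay above TA animal 2 of 6 h for 33 of the 43 (33.6% of all genes). The median difference was 0.24 against -0.01 over all genes. The vehicle pool of 24 h lay above that same animal for 36 (47.2%). Both comparisons rest on that 1 array of 6 h, which had the lowest median of the 43 genes among the 6 arrays (10.81). The comparison with the pool also sets vehicle against TA. The number of doses, the hours since the last one and the time of day at collection all differ between the 2 times and cannot be told apart here.

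By role the pattern was widest in the core. Over all genes, 24% had both TA animals of 24 h above both of 6 h, and 23.2% had them below. All 6 beta ring genes and 6 of 7 alpha ring genes had TA animals of 24 h above those of 6 h without overlap, with medians of 0.26 and 0.21. The pools differed by 0.18 and 0.17 in the same direction. Of the ATPases 4 of 6 did so (median 0.34, pools 0.16), and of the other regulatory subunits 6 of 11 (median 0.16, pools 0.12), with 2 the other way. The chaperones were split, with 3 higher, 1 lower and a median of 0.01. None of the 4 activator and inhibitor genes separated, and their median was 0.02. Psmd14 had the largest difference between the TA animals, 0.65 ± 0.14 (a fold of 1.56, adjusted limma p 0.223), and its pools differed by 0.42. Psmb7 followed at 0.54 ± 0.09 with the smallest adjusted limma p of the 43, 0.188, and 0.19 between the pools. Psma2, Psmc6 and Psmd5 differed by 0.50 ± 0.22, 0.43 ± 0.10 and 0.42 ± 0.09.

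Psmc2, an ATPase, read 12.96, 13.03 and 12.94 at 6 h and 13.31, 13.47 and 13.30 at 24 h, with all 3 arrays of 24 h above the 3 of 6 h and a TA difference of 0.40 ± 0.10. The pools differed almost as much, by 0.35. Psma5 and Psma6 of the alpha ring separated by 0.24 ± 0.11 and 0.21 ± 0.08, and Psmb1, Psmb3 and Psmb4 of the beta ring by 0.22 ± 0.09, 0.23 ± 0.09 and 0.13 ± 0.08. The steadiest of these was Psma6, which read 13.11, 13.07 and 13.05 at 6 h and 13.23, 13.29 and 13.26 at 24 h. Its SE of 0.08 was among the smallest of the family.

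Against this direction, 3 genes read lower in every 24 h array than in every 6 h array. They were Psmg4, a chaperone of alpha ring assembly, Psmd11 and Psmd3, a lid subunit. Psmg4 read 8.68, 8.66 and 8.50 at 6 h and 8.07, 8.23 and 8.01 at 24 h, a TA difference of -0.46 ± 0.13 beside -0.61 between the pools. Psmd11 had -0.32 ± 0.09 and Psmd3 -0.09 ± 0.09, the arrays of Psmd3 barely separating. Markers of other liver cells also differed between the times. In the TA animals 9 of 9 stellate cell and 9 of 9 macrophage markers had lower means at 24 h (5287 of all 10449 genes). In each list 5 of the 9 were lower without overlap (23.2% of all genes). The stellate and macrophage medians were -0.94 and -0.33 between the TA animals of the 2 times but -0.19 and -0.04 between the pools. Against vehicle the stellate and macrophage medians were 0.15 and 0.28 at 6 h and -0.56 and -0.07 at 24 h. At 6 h the stellate median was 0.54 in animal 1 and -0.09 in animal 2, and the macrophage median was 0.30 and 0.12. The summed stellate level was 13.50 to 13.95 in the TA animals of 6 h and 12.64 to 13.03 in those of 24 h, and the macrophage sum was 13.20 to 13.49 and 12.87 to 13.25. The hepatocyte sum was 18.17 to 18.23 and 18.11 to 18.13, with 5 of 7 markers lower at 24 h. The endothelial sum was 12.80 to 12.86 and 12.56 to 12.96, although 5 of 6 markers had lower means at 24 h, with a median difference of -0.23 over the 6. Limma called none of these markers. Of the stellate list Des was below the filter, and of the bile duct and lymphocyte lists Krt7, Spp1, Cd3d, Cd8a, Cd79b and Nkg7 were. The part of cell mixture in the proteasome values was not tested.

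**Figure D3:**
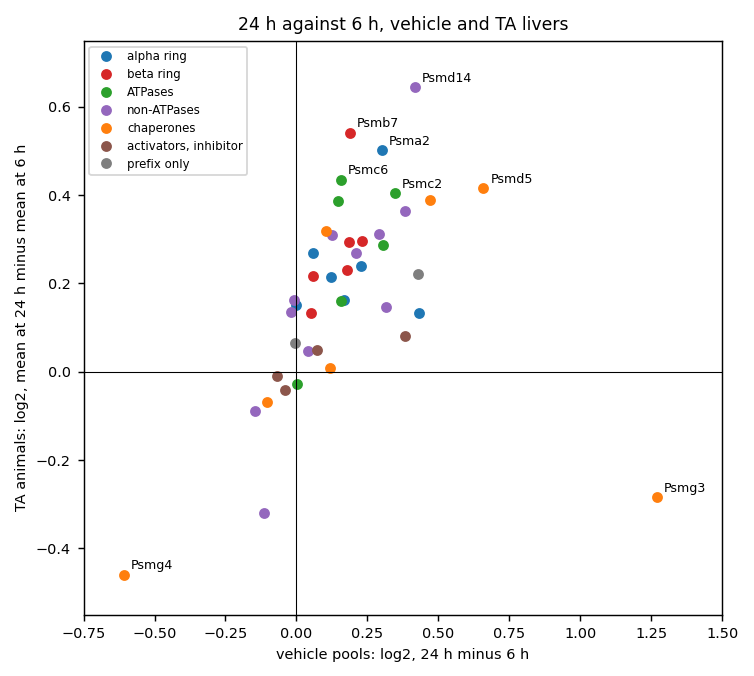
Each point is 1 proteasome gene, coloured by role: the horizontal axis is the log2 value of the 24 h vehicle pool minus that of the 6 h pool, the vertical axis the TA mean at 24 h minus that at 6 h. Of the 43 points 33 lie right of zero and 35 above it, with Psmd14 and Psmb7 at the top and Psmg3 far to the lower right; the axes share no array.

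**Figure D4:**
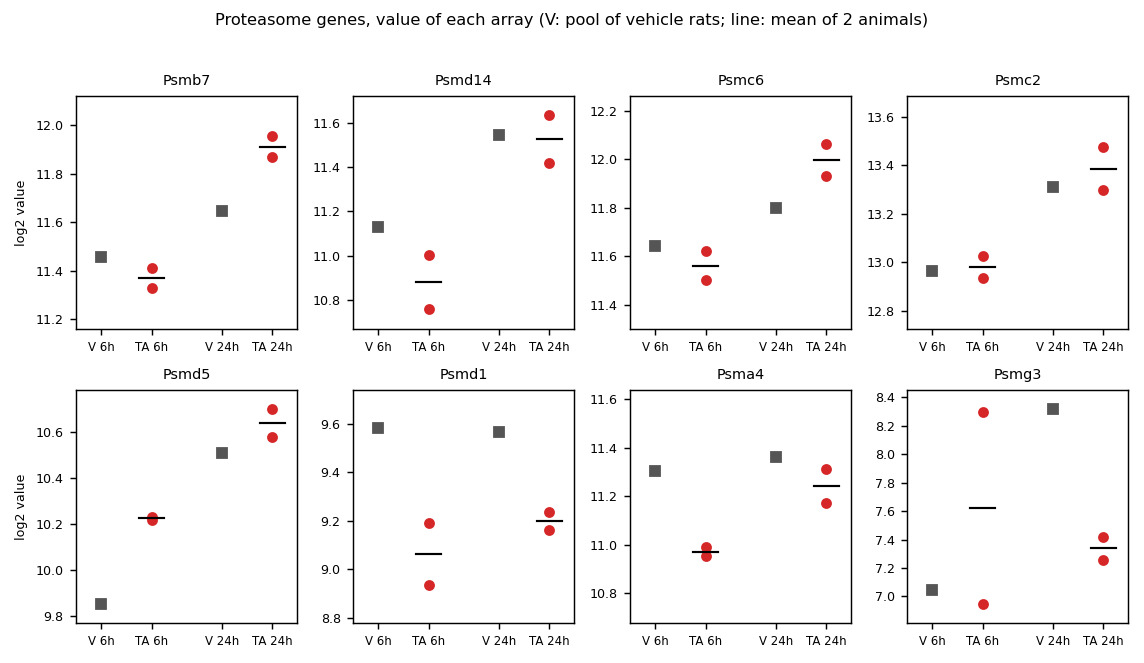
Log2 value in each array for 8 genes (square, vehicle pool of 2 rats; circle, 1 TA animal; line, mean of the 2 animals; vertical axes differ between panels). Psmb7, Psmd14, Psmc6, Psmc2 and Psmd5 are higher at 24 h in pool and animals, Psmd1 is lower in all 4 TA animals than in both pools, Psma4 is lowest in the TA animals of 6 h, and the Psmg3 animals of 6 h lie far apart.

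The promoters of these genes, many of which differed together between the times, were read from RefSeq (rat assembly GRCr8, 250 bases before to 50 after the annotated start), which held 39 of the 43 genes. For 24 of the 39, the 4 genes printed among them, the window is placed on the outer end of the gene as RefSeq maps it, and for the others on another annotated start. Both strands were searched for the core of the antioxidant response element, TGACNNNGC, which Nrf1 and Nrf2 bind with small Maf proteins. They were also searched for the CCAAT box, bound by NF-Y, for the GC box GGGCGG, bound by Sp1, and for the site CCGGAAG of ETS factors. The element core occurred in 7 of the 39 (17.9%) and in 12.2% of 27457 promoters of the same length. The CCAAT box occurred in 20 (51.3% against 37.7%), the GC box in 28 (71.8% against 34.9%) and the ETS site in 15 (38.5% against 9.22%). The 7 genes with the element core were Psma3, Psmb2, Psmb5, Psmd1, Psmd3, Psmd9 and Psme4, and they had a median difference between TA animals of 24 h and 6 h of 0.16, against 0.22 in the 32 without it. At 6 h their median difference from vehicle was 0.07 against -0.02. A match is a description of letters and not evidence of binding.

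The windows of 4 genes are shown, for the catalytic subunits Psmb7 and Psmb5, for Psmb2, where both kinds of match meet, and for Psmd1, whose difference from vehicle was the lowest at 6 h and in the mean of both times. They lie at chr3:42827421-42827720 on the minus strand, chr15:32047330-32047629 on the minus strand, chr5:144254808-144255107 on the plus strand and chr9:94157721-94158020 on the plus strand, each printed 5′ to 3′ along the gene. Capitals mark matches to the element core and to the CCAAT box on either strand, so that ATTGG is such a box read from the other strand. In Psmb2 the 2 kinds of match share 1 base.
Psmb7: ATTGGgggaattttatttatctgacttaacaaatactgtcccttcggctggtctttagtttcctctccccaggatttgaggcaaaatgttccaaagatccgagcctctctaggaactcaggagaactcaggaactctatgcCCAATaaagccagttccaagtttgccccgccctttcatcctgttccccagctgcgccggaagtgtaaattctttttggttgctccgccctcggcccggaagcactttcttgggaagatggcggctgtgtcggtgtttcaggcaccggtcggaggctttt
Psmb5: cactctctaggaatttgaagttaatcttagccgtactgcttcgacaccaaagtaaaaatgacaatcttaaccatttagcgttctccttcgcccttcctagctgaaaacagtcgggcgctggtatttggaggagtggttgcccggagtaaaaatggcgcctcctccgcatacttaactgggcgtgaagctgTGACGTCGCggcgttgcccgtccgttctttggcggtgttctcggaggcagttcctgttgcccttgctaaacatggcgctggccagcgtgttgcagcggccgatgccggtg
Psmb2: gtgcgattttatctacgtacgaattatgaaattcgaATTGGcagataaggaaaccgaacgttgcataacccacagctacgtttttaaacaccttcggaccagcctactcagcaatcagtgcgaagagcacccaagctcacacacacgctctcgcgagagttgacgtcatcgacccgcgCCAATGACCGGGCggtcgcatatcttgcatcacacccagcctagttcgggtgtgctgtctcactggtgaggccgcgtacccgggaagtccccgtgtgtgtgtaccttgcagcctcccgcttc
Psmd1: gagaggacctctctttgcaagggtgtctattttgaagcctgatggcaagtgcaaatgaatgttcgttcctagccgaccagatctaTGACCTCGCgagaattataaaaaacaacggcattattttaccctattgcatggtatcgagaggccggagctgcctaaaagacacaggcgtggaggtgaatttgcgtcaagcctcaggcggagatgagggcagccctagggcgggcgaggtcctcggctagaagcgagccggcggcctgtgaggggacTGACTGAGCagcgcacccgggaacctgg
Psmb7, with the smallest p between the times, holds 2 CCAAT boxes, 2 GC boxes and 2 ETS sites but no element core. Psmb5 holds the element core, TGACGTCGC, beginning 60 bases before the start, and none of the other motifs. Psmd1 holds 2 such cores and lay below the vehicle pool in all 4 TA animals.

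Where a gene had another probe set above the filter, its readings were set beside those of the brightest. This applied to 6 genes through 8 probe sets, of which the one for Psmb5 lay near the floor of the values, between 2.86 and 2.88. The other Psmd14 probe set read 8.46, 8.14 and 8.15 at 6 h and 8.68, 8.92 and 8.83 at 24 h, again with every 24 h array above every 6 h array. Its difference from vehicle was -0.32 ± 0.10 at 6 h and 0.20 ± 0.10 at 24 h, where the brighter one gave -0.02 ± 0.18. The 2 other Psmc6 probe sets had TA differences between times of 0.52 and 0.43. At 6 h, however, they lay at 0.13 and 0.22 from the pool, against -0.08 in the brightest. The other probe sets of Psmd7 and Psmd11 had TA differences between times of 0.20 and -0.39, in the direction of the brightest. For Psmd7, however, the other one read the pool of 24 h (9.42) below that of 6 h (9.45). For Psmd11 it lay at -0.07 ± 0.26 from the pool at 24 h, with animal 2 above the pool by 0.19. Psme4 disagreed within itself: a further probe set read 7.52, 7.84 and 7.59 at 6 h and 7.51, 7.29 and 7.39 at 24 h, above the pool in both animals at 6 h, while the brightest was below it in both. The remaining one lay below the pool in both, at -0.21 ± 0.10. Of the 43 genes, 17 have like-named copies or pseudogenes in RefSeq, up to 10 for Psmb3, and cross-hybridisation with these was not tested.

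The inducible subunits Psmb8, Psmb9 and Psmb10, which replace catalytic subunits of the core after interferon gamma, were set beside the family. Psmb8 read 11.30, 11.60 and 11.21 at 6 h and 11.63, 11.62 and 10.83 at 24 h. Psmb9 read 10.75, 11.21 and 10.87 at 6 h and 10.55, 10.98 and 10.40 at 24 h, and Psmb10 read 9.89, 10.37 and 10.06 at 6 h and 10.18, 10.09 and 9.70 at 24 h. In all 3 genes animal 1 lay above animal 2 at either time, and the gap between animals was widest in Psmb8 at 24 h. At 6 h Psmb9 and Psmb10 were above the pool in both animals, at 0.30 ± 0.32 and 0.32 ± 0.24. At 24 h Psmb8 and Psmb10 were below it in both, at -0.41 ± 0.41 and -0.28 ± 0.24. No adjusted limma p was under 1 in these 6 comparisons of the 3 genes with vehicle. Between the times, the pool of 24 h lay above that of 6 h for Psmb8 by 0.33 and for Psmb10 by 0.29, and below it for Psmb9, at -0.20. In the TA animals all 3 means were lower at 24 h, with a median of -0.31, although none separated without overlap.

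Psme1 and Psme2 encode the PA28 activator, which is likewise induced by interferon gamma, and they neighbour each other on chromosome 15. Psme1 read 12.54, 12.79 and 12.61 at 6 h and 12.50, 12.74 and 12.58 at 24 h, and Psme2 read 11.14, 11.35 and 11.14 at 6 h and 11.21, 11.41 and 11.18 at 24 h. Psme1 lay above both pools in all 4 TA animals, by 0.16 ± 0.14 at 6 h and 0.16 ± 0.14 at 24 h. For Psme2 the differences were 0.11 ± 0.17 and 0.09 ± 0.17, and its animal 2 of 24 h lay just under the pool. Animal 1 was again above animal 2 in both genes at both times. The SE was just under the difference for Psme1 and above it for Psme2, and the adjusted limma p was 1 for both genes at both times.

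**Figure D5:**
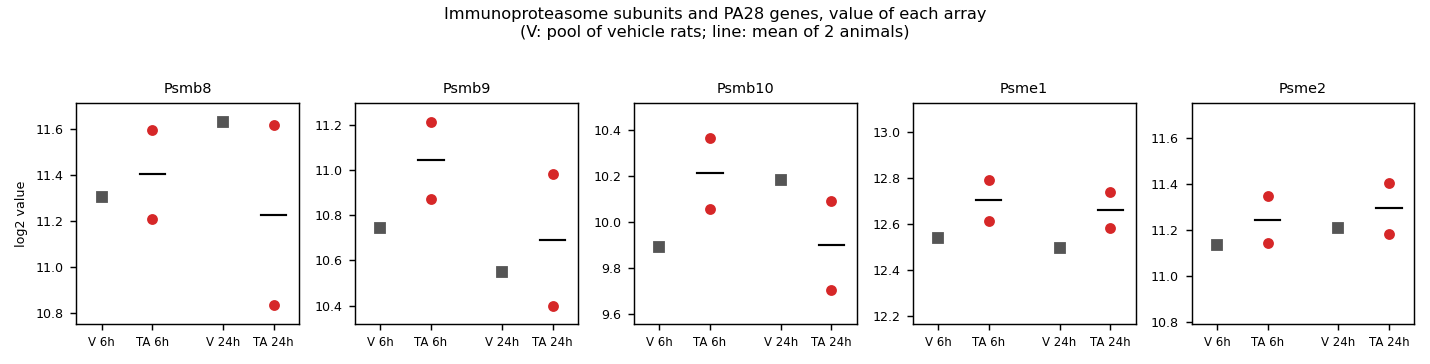
Log2 value in each array for the inducible subunits Psmb8, Psmb9 and Psmb10 and the PA28 genes Psme1 and Psme2 (square, vehicle pool; circle, 1 TA animal; line, mean of the 2 animals; vertical axes differ between panels). The 2 animals of a group lie farther apart in Psmb8, Psmb9 and Psmb10 than in the PA28 genes, and all 4 Psme1 circles lie above both squares.

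The rest of the ubiquitin system gave no call either. For further proteasome and assembly factors 10 symbols were listed, of which Shfm1 and Pi31 are other names of Sem1 and Psmf1. Of the 7 genes measured, the medians were -0.10 at 6 h and -0.03 at 24 h. In both animals at 6 h, 4 lay below and 0 above the pool (38.4% and 22.9% of all genes). Pomp, the chaperone of the beta ring, read 11.82, 11.79 and 11.65 at 6 h and 12.04, 12.03 and 12.01 at 24 h, and Uchl5, a deubiquitinase of the regulatory particle, was -0.25 ± 0.12 at 6 h. Of 7 regulators measured (8 listed), Nfe2l2, which encodes Nrf2, read 11.56, 11.00 and 10.79 at 6 h and 11.43, 11.47 and 11.17 at 24 h. Both animals of 6 h were the lowest of the 6 arrays, at -0.67 ± 0.19 with an adjusted limma p of 0.832. Nfe2l1, which encodes Nrf1, read 5.59, 5.37 and 5.55 at 6 h and 5.25, 5.36 and 5.36 at 24 h and was -0.13 ± 0.12 at 6 h and 0.11 ± 0.12 at 24 h. Mafk, a small Maf partner of both, was 0.25 ± 0.10 and 0.15 ± 0.10.

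The 5 textbook Nrf2 targets looked up (Nqo1, Gclc, Gclm, Srxn1 and Txnrd1) had a median of 0.68 at 6 h and 0.14 at 24 h, with 4 of 5 above the pool in both animals at each time (22.9% of all genes at 6 h and 28.1% at 24 h). Srxn1 read 7.40, 8.45 and 8.78 at 6 h and 7.91, 8.13 and 7.97 at 24 h and Nqo1 read 11.00, 11.60 and 11.81 at 6 h and 11.69, 11.91 and 11.74 at 24 h, differences of 1.22 ± 0.19 and 0.71 ± 0.15 at 6 h with an adjusted limma p of 0.76 for each. Gclm, the target not above the pool in both animals, was -0.09 ± 0.45 at 6 h. Against both pools, the 6 h animals lay above for 2 of the 5 targets (13% of all genes). The 24 h pool read above that of 6 h for Nqo1, Gclc and Srxn1, by 0.70, 0.71 and 0.51. It read below for Gclm and Txnrd1, at -0.59 and -0.135. The proteasome genes, at a median of -0.03 at 6 h, did not share the size of the target differences from the 6 h pool. Of the ubiquitin activating enzymes 3 of the 7 genes listed with ubiquitin were measured, and Uba7, the enzyme for the ubiquitin-like Isg15, was 0.47 ± 0.13 at 6 h and -0.23 ± 0.13 at 24 h. Uba1, the main enzyme of the step, was -0.28 ± 0.15 and 0.06 ± 0.15. The 10 shuttle and segregase genes (13 symbols listed, Ufd1l and Ufd1 naming 1 gene) had medians of -0.07 and -0.03. Among them Ubqln4 was lowest at 6 h with -0.55 ± 0.12 and Ubqln2 at 24 h with -0.37 ± 0.10. Nsfl1c was 0.39 ± 0.14 at 6 h. Of 22 conjugating enzymes (27 symbols listed, Ube2r1 and Cdc34 naming 1 gene), 14 lay below the pool in both animals at 6 h and 4 above (38.4% and 22.9% of all genes). The median of the 22 was -0.11, and Ube2h was at -0.35 ± 0.13. At 24 h the counts were 6 below and 6 above (34.5% and 28.1% of all genes).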

How the data were processed

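Liver RNA of 8 rats was hybridised to 6 Affymetrix Rat230_2 arrays. The authors deposited log2 expression values. The submitters' processing notes name R 2.0.1, affy 1.5.8, RMA and GCRMA, without saying whether RMA or GCRMA gave these values (not given in the sources used here). Scanner intensities were not used here. Precision is limited by the number of arrays.

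The 57 control probe sets were left out. Symbols came from the platform annotation (1 symbol for 20826 probe sets, several for 436, none for 9780). All 43 member symbols were matched to the RefSeq table by gene ID and kept their names. The members and gene lists were chosen with earlier results of these data known. The filter kept 18625 probe sets whose mean exceeded the 40th percentile (2.82), and the brightest one stood for each of 10449 genes.

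A model of the 4 groups was fitted to all arrays by lmFit and eBayes of limma 3.58.1 (R 4.3.3). It had 2 residual degrees of freedom, and the prior had 1.60. P-values are two-sided, adjusted by the Benjamini-Hochberg method over all probe sets and called under 0.05. They measure the spread between the TA animals, and a pool is assumed to vary like 1 animal. Counts of both animals use the same pool and are not independent. Medians over the family are descriptions. Members named with all values were those with the largest difference, up to 6 each way, among genes on 1 side of the pool in both animals or, between times, with no overlap. The catalytic, inducible, activator and inhibitor genes and Psmd14 were always named, and in each pathway list the genes with the smallest p. Psmc3, Psma3, Psmb1, Psmb3, Psmb4, Psma5, Psma6, Psmg2, Pomp and the named Nrf2 targets were added after their values were seen. The fit was tested on simulated data. Alternatives covered the filter, normalization, prior, probe set summary, control group, an additive model, the fluidics run, the replicate number as a block, and leaving out animals or the 2 genes that share only the prefix.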

Additional observations from a re-analysis of the deposited data

Results flagged for a closer look

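In 14 genes, 7 of the 43 and 7 other named genes, both TA animals lay on 1 side of the vehicle pool at 6 h and both on the other side at 24 h. The values given here are the effect at 24 h minus the effect at 6 h with its SE, and limma did not call any of these differences (adjusted p 1 for each). Over all genes, such a switch from lower to higher was seen in 10.3% and from higher to lower in 6.74%, beside 6 and 1 of the 43. Because both animals are set against 1 pool, a single pool reading can place them on the same side.

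Among the proteasome genes, the trypsin-like subunit Psmb7 went from below to above the pool with a difference of 0.35 ± 0.15, and the ATPase Psmc6 did so with 0.28 ± 0.17. Psmb1 of the beta ring (0.16 ± 0.15), Psma7 (0.15 ± 0.19) and Psma6 (0.094 ± 0.131) of the alpha ring and the unrelated Psmc3ip (0.070 ± 0.142) had the same switch. The 2 other probe sets of Psmc6 did not repeat its switch, with 0.03 ± 0.27 and -0.16 ± 0.21. Their differences from the pool at 6 h were 0.13 and 0.22. The alpha ring subunit Psma1 went from above to below with -0.30 ± 0.16. The inducible subunit Psmb10 also went from above to below, with -0.61 ± 0.35. The transcription factor gene Nfe2l1 went from below to above, with 0.24 ± 0.17.

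In the ubiquitin system, Uba7 had a difference of -0.70 ± 0.18 and the shuttle factor Ubqln2 one of -0.49 ± 0.14, both from above to below. The shuttle factor Ubqln4 (0.61 ± 0.17) and the conjugating enzymes Ube2a (0.50 ± 0.18) and Ube2b (0.53 ± 0.28) went from below to above.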

How the results depend on the processing

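No proteasome gene was called by limma in any comparison under any of the 16 alternatives. An additive model of time and treatment came nearest: set beside TA at 24 h against TA at 6 h, its time effect had a smallest adjusted p of 0.0702 (Psmd9) and 3 probe sets called. The number of probe sets called at 24 h, 1 as reported, was 0 above the 60th percentile, with both pools as 1 control, with the other time's pool, with the replicate block and with the run as a block, and 2 with an intensity trend. It lay between 0 and 2 without single animals. At 6 h the other time's pool gave 1.

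The median difference at 6 h was 0.032 after quantile normalization, -0.062 with both pools as 1 control, -0.16 with the 24 h pool and 0.0037 with the replicate block. At 24 h it was 0.12 with both pools and 0.21 with the 6 h pool, and between -0.0046 and 0.0547 without single animals. TA at 24 h minus TA at 6 h gave 0.16 after quantile normalization, 0.16 with the mean of all probe sets, and 0.17 to 0.24 without single animals. Genes lower in both animals at 6 h numbered 5 after quantile normalization. Genes higher in both at 6 h numbered 7 with both pools and 6 with the 24 h pool. At 24 h, 32 were higher with the 6 h pool, where both TA animals of 24 h are set against an array of 6 h. Without single animals, where 1 animal can stand for both, between 18 and 33 were higher and between 8 and 23 lower at 24 h, the highest counts coming without TA animal 2 and without TA animal 1 of that time.

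Of 947 recomputed differences of named genes, 41 had the other sign. Against the pool of the other time these were, at 6 h, Psmd5 -0.29, Psmf1 -0.14, Psmd8 -0.081, Psmd9 -0.24, Psme3ip1 -0.26, Psmb5 -0.16, Psmb8 -0.23, Uba1 0.12, Ubqln4 0.21, Nsfl1c -0.27 and Ube2h 0.27. At 24 h they were Psmf1 0.33, Psmd14 0.40, Psmd12 0.17, Psmg3 0.29, Psma1 0.20, Psmb9 -0.053, Psmb10 0.0088, Txnl1 0.015, Mafk -0.26, Nfe2l1 -0.23, Uba7 0.14, Ube2a -0.017 and Ube2b -0.20. With both pools as 1 control they were, at 6 h, Psmd9 -0.0032, Psme3ip1 -0.048, Psmb5 -0.044 and Psmb8 -0.065, and at 24 h Psmf1 0.14, Psmd14 0.19, Mafk -0.054 and Nfe2l1 -0.062. The mean of all probe sets gave Psmd14 0.088, Ecpas 0.16 and Uba7 0.014 at 24 h. Without TA animal 1 of 6 h Psmb8 was -0.096. At 24 h, without animal 1, Psmb9 was -0.15 (0.43 without animal 2) and Psme2 -0.027, and without animal 2 Psmf1 was 0.041 and Psmd14 0.089 (-0.13 without animal 1). Unless the construction shows it, the cause was not tested.

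Animals with the same number at 6 h and 24 h are different rats, and their deviations correlated at -0.08 over probe sets, so the numbers do not pair them. With the replicate block, Psmf1 at 24 h was 0.021, and the smallest adjusted limma p between the TA times was 0.269. The additive model gives no separate value for 6 h or 24 h, and a single control group gives no difference of effects. With the run as a block, 6 h is TA animal 1 against its pool.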
